A study of Mus musculus with 2 samples.

Results

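The cells described here are barcodes with at least 10 unique molecular identifiers (UMIs, 1 per captured transcript) of Camp, Ngp and Ltf together. A barcode was kept if it had 200 or more genes and no more than 10% mitochondrial UMIs. There were 65 such members among 16895 kept barcodes, 62 in the PTIR1 library and 3 in the Mock library. The working name was immature neutrophils with secondary granule genes. Only 3 of the 65 barcodes had over 1000 UMIs of these genes, and 57 carried them at about 1% of their UMIs beside transcripts of several other cell types. The members are therefore called below by their measured values. Camp, Ngp and Ltf chose the members, so their levels are a description, and the 3 subsets below were drawn after the values were seen.

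The tumours were CT26, a mouse colon carcinoma line that grows in BALB/c mice. The labels give the genotype of 1 library as PTIR1-expressing and that of the other as mock, and both have tumour as tissue and infiltrating lymphocytes as source. The animals' number and age, the construct's promoter and any sorting were not given in the sources used here. With 1 library for each genotype there was no replicate, no test and no p-value, and every interval is a 95% interval for counting error only.

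Neutrophils are built in the bone marrow, and their granule proteins are made in waves. Myeloblasts and promyelocytes make the primary granule proteins, such as Mpo and Elane. Myelocytes and metamyelocytes then make the secondary granule proteins, among them Camp (the cathelicidin precursor), Ngp (neutrophilic granule protein), Ltf (lactoferrin, which binds iron) and Lcn2 (lipocalin 2, which binds bacterial siderophores). C/EBPε, encoded by Cebpe, is the transcription factor of that stage. Camp, Ngp and Ltf transcripts are largely switched off before a neutrophil leaves the marrow, whereas Lcn2 RNA is not confined to that stage. Csf3r (the G-CSF receptor), Cxcr2 (a chemokine receptor) and inflammatory genes are high in mature cells.

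Camp, Ngp and Ltf lie on chromosome 9 of the mouse genome (mm10, GENCODE vM21), within 1.20 Mb. Camp (ENSMUSG00000038357) runs from 109847379 to 109849617 on the minus strand. Ngp (ENSMUSG00000032484) runs from 110419747 to 110423012 and Ltf (ENSMUSG00000032496) from 111019271 to 111042767, both on the plus strand. Lcn2 (ENSMUSG00000026822) lies on chromosome 2, from 32384633 to 32388252 on the minus strand. The promoters of the 3 rule genes are shown because these genes define the barcodes, and that of Lcn2 because it was present beside them in nearly all of them. Each holds 300 bases (GRCm38.p6), 250 before and 50 after the gene's RefSeq start, 5′ to 3′ on the gene's strand. The RefSeq starts lie inside the GENCODE bounds given above, by 161 bases for Camp, 61 for Ngp, 21 for Ltf and 513 for Lcn2. Capitals mark matches on either strand to TTGCNNAA, which holds 1 full C/EBP half-site (TTGC) and only the AA of the other.
Camp, chr9:109849407-109849706 (minus): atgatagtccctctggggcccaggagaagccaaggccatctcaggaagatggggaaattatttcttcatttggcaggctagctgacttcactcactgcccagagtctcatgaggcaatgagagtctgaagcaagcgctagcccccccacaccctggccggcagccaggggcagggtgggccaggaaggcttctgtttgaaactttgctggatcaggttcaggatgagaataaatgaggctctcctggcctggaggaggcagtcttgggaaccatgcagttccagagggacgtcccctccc
Ngp, chr9:110419558-110419857 (plus): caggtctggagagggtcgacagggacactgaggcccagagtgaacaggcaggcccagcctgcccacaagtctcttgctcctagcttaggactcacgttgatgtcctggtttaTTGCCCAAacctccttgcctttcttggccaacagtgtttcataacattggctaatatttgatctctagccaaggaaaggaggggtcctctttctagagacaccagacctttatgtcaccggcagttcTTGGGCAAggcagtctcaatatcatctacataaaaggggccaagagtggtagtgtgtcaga
Ltf, chr9:111019042-111019341 (plus): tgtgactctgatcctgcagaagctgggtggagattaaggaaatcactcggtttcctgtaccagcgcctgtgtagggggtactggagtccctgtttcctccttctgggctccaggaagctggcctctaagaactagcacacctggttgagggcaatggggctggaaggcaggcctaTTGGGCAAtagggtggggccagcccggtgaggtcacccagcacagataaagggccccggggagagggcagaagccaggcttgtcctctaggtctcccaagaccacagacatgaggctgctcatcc
Lcn2, chr2:32387690-32387989 (minus): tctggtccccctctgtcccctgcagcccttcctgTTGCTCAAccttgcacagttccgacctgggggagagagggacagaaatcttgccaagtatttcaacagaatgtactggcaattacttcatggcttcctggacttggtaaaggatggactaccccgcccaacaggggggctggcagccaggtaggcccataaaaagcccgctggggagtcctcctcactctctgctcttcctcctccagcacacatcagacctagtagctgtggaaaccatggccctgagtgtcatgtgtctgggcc
Ngp held 2 matches, Ltf 1, Lcn2 1 and Camp 0. The motif was present in 10.8% of 32851 promoters of this length, and the palindrome TTGCGCAA was in 0 of these 4 and in 0.183% of all. A match is a run of letters and not a binding site.

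The PTIR1 library had 98540561 UMIs over 9006 barcodes, of which 7567 were kept (median 7016 UMIs). The Mock library had 95166611 UMIs over 10833 barcodes, of which 9328 were kept (median 2947.5 UMIs). Members made up 0.819% of kept PTIR1 barcodes (exact binomial interval 0.629 to 1.05%) and 0.0322% of kept Mock barcodes (0.00663 to 0.0940%). The ratio of these shares was 25.5 (approximate normal interval on the log scale, 8.0 to 81.1). It rested on the 57 shallow barcodes, which were all in the PTIR1 library. Among barcodes with at least 500 summed UMIs there were 2 in the PTIR1 and 1 in the Mock library. The libraries shared 30 barcode sequences, and 0 of them were members.

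The rule genes were unevenly spread over the kept barcodes, which describes the choice of members and is no finding about them. In the PTIR1 library members held 95.7% of the 6606 Camp, Ngp and Ltf UMIs of all kept barcodes, and in the Mock library 95.2% of 1425. The 3 barcodes with the highest sums alone held 61.8% of these UMIs in the PTIR1 library (2 barcodes) and 93.3% in the Mock library (1 barcode). Just inside the limit were PTIR1 barcodes with 12, 13 and 15 summed UMIs and a Mock barcode with 12. Just outside it were PTIR1 barcodes with 9 and 4 UMIs and Mock barcodes with 7, 6 and 5. All 5 of those outside had Ltf UMIs with 0 of Camp and Ngp.

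**Figure D1:**
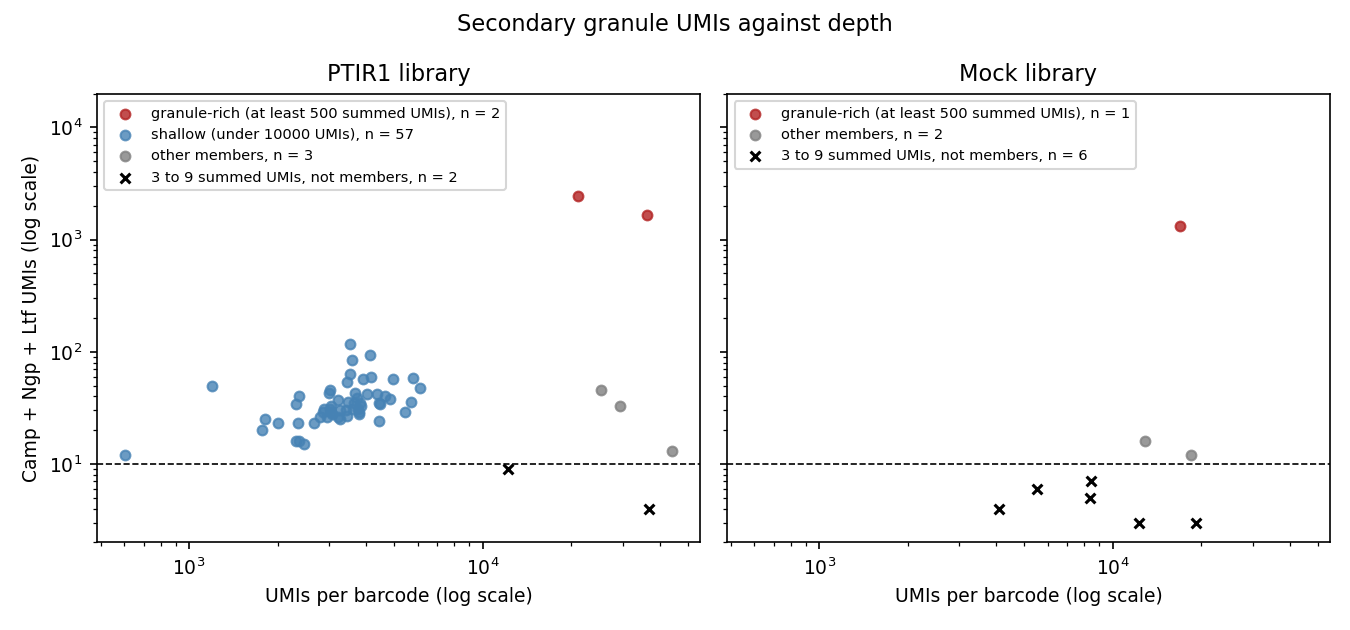
Summed Camp, Ngp and Ltf UMIs against all UMIs of a barcode, both on log axes, for the PTIR1 library (left) and the Mock library (right); each point is a barcode, the dashed line is the limit of 10, and crosses are barcodes with 3 to 9 summed UMIs. The 57 shallow PTIR1 barcodes form a group between 12 and 117 summed UMIs, and the 2 PTIR1 and 1 Mock granule-rich barcodes lie above 1000.

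The 3 barcodes with at least 500 summed UMIs, called granule-rich, had the markers of the working name at high levels. The first PTIR1 barcode had 21134 UMIs, with 1199 Camp, 916 Ngp, 307 Ltf and 495 Lcn2 UMIs. The second PTIR1 barcode had 36120 UMIs, with 874 Camp, 643 Ngp, 144 Ltf and 407 Lcn2 UMIs. The Mock barcode had 16881 UMIs, with 842 Camp, 276 Ngp, 211 Ltf and 194 Lcn2 UMIs. Camp, Ngp and Ltf thus made up 11.5% and 4.599% of the UMIs of the PTIR1 barcodes and 7.87% of those of the Mock barcode. S100a8 and S100a9, which form calprotectin, made up 25.97% and 10.4% of UMIs in the PTIR1 barcodes and 25.6% in the Mock barcode.

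Other genes of the immature stage were present in all 3. Ly6g, the granulocyte surface antigen, had 26 and 15 UMIs in the PTIR1 barcodes and 39 in the Mock barcode. Cebpe had 13 and 15 UMIs in the PTIR1 barcodes and 7 in the Mock barcode. Orm1, an acute-phase protein gene, had 7 and 2 UMIs in the PTIR1 barcodes and 8 in the Mock barcode. Primary granule genes were nearly absent, since Mpo, Elane, Ctsg and Prtn3 had 0 UMIs in all 3, and Ms4a3, a gene of granulocyte progenitors, had 4 UMIs in each PTIR1 barcode and 0 in the Mock barcode.

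The PTIR1 and Mock barcodes differed in cycling and later-stage genes. Mki67, a marker of dividing cells, had 13 and 19 UMIs in the PTIR1 barcodes and 0 in the Mock barcode. Fcnb, a ficolin of immature neutrophils, had 15 and 11 UMIs in the PTIR1 barcodes and 0 in the Mock barcode. Mmp9, the gelatinase of later granules, had 1 and 0 UMIs in the PTIR1 barcodes and 33 in the Mock barcode. Retnlg, a resistin-like gene of mature neutrophils, had 1 and 2 UMIs in the PTIR1 barcodes and 28 in the Mock barcode. Mmp8, the neutrophil collagenase, had 0 UMIs in both PTIR1 barcodes and 15 in the Mock barcode. Csf3r had 2 UMIs in each PTIR1 barcode and 1 in the Mock barcode, and Cxcr2 had 0 in both PTIR1 barcodes and 1 in the Mock barcode. With 2 barcodes against 1, these values describe single barcodes and not the genotypes.

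The 57 shallow barcodes, defined by under 10000 UMIs, had 603, a median of 3460 and at most 6115 UMIs. Their summed Camp, Ngp and Ltf UMIs were 12 at the lowest, 33 at the median and 117 at the highest. Camp ran from 4 through a median of 15 to 54 UMIs, and Ngp from 4 through 16 to 65. Ltf ran from 0 through 3 to 18 UMIs, and was detected in 56 of the 57. Lcn2, which the rule did not use, was detected in all 57, at 2, a median of 10 and at most 27 UMIs. The median barcode had 0.963% of its UMIs in the 3 genes and 2.97% in S100a8 and S100a9. Both are lower than in every granule-rich barcode.

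The mixture of the 3 transcripts resembled that of the granule-rich barcodes in part. Ltf made up 11.4% of the 2145 summed UMIs of the shallow barcodes (exact binomial interval 10.1 to 12.8%), 11.05% in the PTIR1 granule-rich barcodes (10.1 to 12.05%) and 15.9% in the Mock granule-rich barcode. Ngp made up 45.8% in the shallow barcodes (43.7 to 48.0%), 38.2% in the PTIR1 granule-rich barcodes (36.7 to 39.7%) and 20.8% in the Mock granule-rich barcode (18.6 to 23.0%). Camp made up 42.8% in the shallow barcodes, 50.8% in the PTIR1 granule-rich barcodes and 63.4% in the Mock granule-rich barcode. The Ngp and Camp intervals of these 3 sets did not overlap, and the Ltf intervals of the shallow and PTIR1 granule-rich barcodes did. The PTIR1 value for Ltf pools unlike barcodes, at 12.7% (11.4 to 14.1%) in the first and 8.67% (7.36 to 10.1%) in the second, and the interval of the first overlaps that of the Mock barcode (13.95 to 17.95%). For Ngp and Camp the intervals of these 2 PTIR1 barcodes overlapped.

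**Figure D2:**
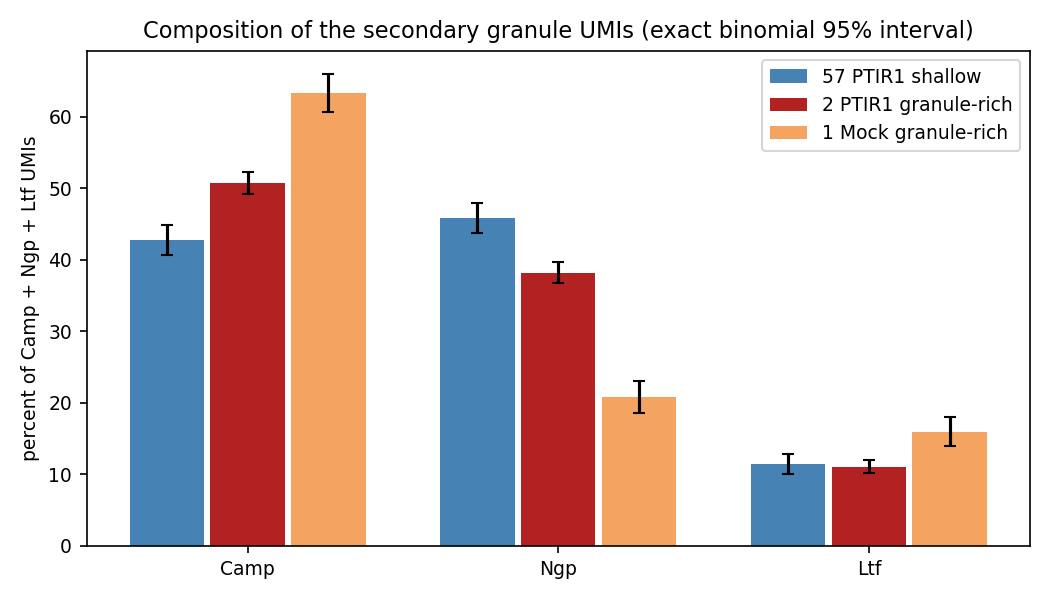
Share of Camp, Ngp and Ltf in the summed UMIs of the 3 genes, in percent, for 57 shallow PTIR1, 2 granule-rich PTIR1 and 1 granule-rich Mock barcodes; bars show the share and error bars its exact binomial 95% interval. Ltf stands at 11.4% in the shallow barcodes and at 11.05% over both PTIR1 granule-rich barcodes together, and Ngp is highest in the shallow barcodes at 45.8%.

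Set beside the 3 rule genes, some other granule and maturation genes stood at different proportions in the shallow and the PTIR1 granule-rich barcodes, and others did not. Mmp9 had 126 UMIs over the shallow barcodes and 1 over the PTIR1 granule-rich barcodes, although the shallow barcodes had fewer Camp, Ngp and Ltf UMIs (2145 against 4083). G0s2, a lipolysis inhibitor gene of mature neutrophils, had 156 UMIs in the shallow and 6 in the PTIR1 granule-rich barcodes. Mki67 had 2 UMIs in the shallow and 32 in the PTIR1 granule-rich barcodes. Anxa1 (annexin A1) made up 8.14% of its UMIs and those of the 3 rule genes in the shallow barcodes (7.06 to 9.32%), against 4.42% in the PTIR1 granule-rich barcodes (3.83 to 5.08%). The intervals overlapped for Ly6g, at 0.786% and 0.994% on the same scale, for Cebpe at 0.786% and 0.681%, and for Wfdc21 at 3.73% and 3.63%. They also overlapped for Hp (haptoglobin) at 1.70% and 1.95%. For Chil3 (a chitinase-like protein) they overlapped at 4.41% and 5.20%, but the second value pools unlike barcodes. The PTIR1 granule-rich barcodes stood at 6.99% (6.04 to 8.04%) and 2.47% (1.78 to 3.32%), and neither interval overlapped that of the shallow barcodes (3.60 to 5.35%). Csf3r was detected in 1 of the 57 shallow barcodes, by 1 UMI, and Cxcr2 in 1 as well.

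The shallow barcodes also carried transcripts that neutrophils are not known for. C1qa, a complement gene of macrophages, had 109 UMIs in 39 of the 57 barcodes and 0 in the PTIR1 granule-rich barcodes. Apoe, the apolipoprotein of tissue macrophages, ran from 0 through a median of 6 to 28 UMIs and was detected in 56. Dcn (decorin, a fibroblast matrix protein) was detected in 39, Col1a2 (a collagen chain) in 34 and Tm4sf1, listed here as a tumour cell gene, in 50. Pf4, a chemokine of platelets and some macrophages, was detected in 54. Macrophage list, fibroblast list, Pf4 and Tm4sf1 UMIs were all present in 44 of the 57 (77.2%). Krt18 and Krt8 of the tumour cell list were at 0. So were 3 of 6 T cell genes (Cd3g, Cd4 and Cd8a) and 2 of 14 macrophage genes (Mertk and Cx3cr1). The other genes of the T cell and macrophage lists were detected.

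After each barcode was thinned at random to 1000 UMIs, the breadth of these transcripts could be set beside other sets. Of 12 lists of other cell types, the median shallow barcode had a UMI from 4, and 78.6% had 4 or more (56 of 57 barcodes were deep enough). Macrophage and monocyte genes counted as separate lists, and Pf4 belonged to the megakaryocyte list, so lists are not separate cell types. Of PTIR1 barcodes below the limit and within the same depth range, 44.8% had 4 or more lists (median 3). The share was 19.3% (median 3) in Csf3r-positive barcodes and 22.3% (median 3) in barcodes with B cell genes. The latter were chosen with at least 3 B cell genes and under 3 macrophage genes, which bears on their breadth. The thinned granule-rich PTIR1 barcodes had 0 and 2 lists. Without thinning the median was 6 lists in these 2 deeper barcodes and 7 in the shallow barcodes. Tm4sf1 (18 UMIs) and fibroblast list genes (21 UMIs) were each detected in 1 granule-rich PTIR1 barcode and at 0 in the other.

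For most abundant genes the shallow barcodes varied little among themselves. For 142 abundant genes, the variance over that of Poisson counting at each barcode's depth had a median of 1.17, where 1 is counting error alone. The same genes had a median of 2.34 among 3189 PTIR1 barcodes of like depth below the limit, which hold many cell types. Camp, Ngp and Ltf themselves were more variable among the shallow barcodes, at 4.12, 5.38 and 5.13. They did not stand alone, as Malat1 was at 45.7, S100a9 at 12.1, S100a8 at 10.9 and Lyz2 at 3.73. Across the 57 barcodes, as shares of UMIs, Camp followed Ngp (Pearson 0.74, Spearman 0.49) and S100a8 (0.77 and 0.65). Apoe followed Lyz2, the lysozyme of myeloid cells (0.64 and 0.66), and Camp ran against Apoe (-0.36 and -0.34). Ltf did not run against them, with Pearson 0.046 and Spearman 0.26 for Apoe and 0.096 and 0.33 for Lyz2. These barcodes share 1 library, the shares of a barcode add up to a fixed total, and the correlations are a description.

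The remaining 5 members resembled neither set. Both remaining Mock members had Ltf only, 16 and 12 UMIs with 0 of Camp, Ngp, Lcn2 and S100a8. They had 57 and 38 UMIs of Cd3g, a T cell receptor chain, and 202 UMIs each of Gzmf, a granzyme. One PTIR1 member also had Ltf only (13 UMIs), with 456 Arg1 and 690 Cxcl2 UMIs among 44171. Another PTIR1 member had 29263 UMIs, 33 of the 3 rule genes, 1280 S100a8 and 1699 S100a9 UMIs, with 244 Retnlg and 8 Cxcr2 UMIs. The last PTIR1 member had 25185 UMIs, 46 of the rule genes, and 45 Dcn, 40 Col1a2 and 30 Col3a1 UMIs.

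Macrophage and monocyte content was measured with 14 macrophage and 8 monocyte genes. Over the 62 PTIR1 members both lists together made up 0.664% of UMIs, and 34 barcodes had at least 5 macrophage genes. Over single PTIR1 members the share was 0.066% at the lowest, 0.564% at the median and 1.55% at the highest. It was 0.710% in the shallow barcodes and 0.175% in the PTIR1 granule-rich barcodes. In the Mock granule-rich barcode it was 0.693%, with 46 macrophage and 71 monocyte UMIs. In Csf3r-positive barcodes below the limit it was 1.15% in the PTIR1 and 1.23% in the Mock library, above the members. In those of them with at least 2% of UMIs in S100a8 and S100a9 it was 0.430% in the PTIR1 and 0.395% in the Mock library, and in PTIR1 barcodes of like depth 0.448%, all below the shallow barcodes. The medians over single barcodes of these 3 sets were lower, at 0.130%, 0.132% and 0.388%, against 0.573% in the shallow barcodes. PTIR1 barcodes with at least 5 macrophage genes and no rule UMI stood at 1.09%, and PTIR1 barcodes with B cell genes at 0.138%. Both values were set in part by the choice of barcodes, since those with B cell genes were required to have under 3 macrophage genes.

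The 2 lists differed in the granule-rich barcodes. The PTIR1 granule-rich barcodes had 2 and 5 macrophage UMIs, with 0 UMIs for 10 of the 14 genes, C1qa, C1qb, C1qc, Csf1r and Adgre1 among them. They had 12 and 81 monocyte UMIs, of which 68 in the second barcode were Fn1 (fibronectin), and 20 over both were Ly6c2. Ccr2, the monocyte chemokine receptor, was at 0 in both. In the shallow barcodes the macrophage list made up 0.446% of UMIs against 0.644% in Csf3r-positive PTIR1 barcodes, and the monocyte list 0.265% against 0.506%. The fibroblast list made up 0.101% against 0.0191%, and the tumour cell list, almost all Tm4sf1, 0.0611% against 0.0096%. The part of these transcripts in the comparisons that follow was not tested.

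**Figure D3:**
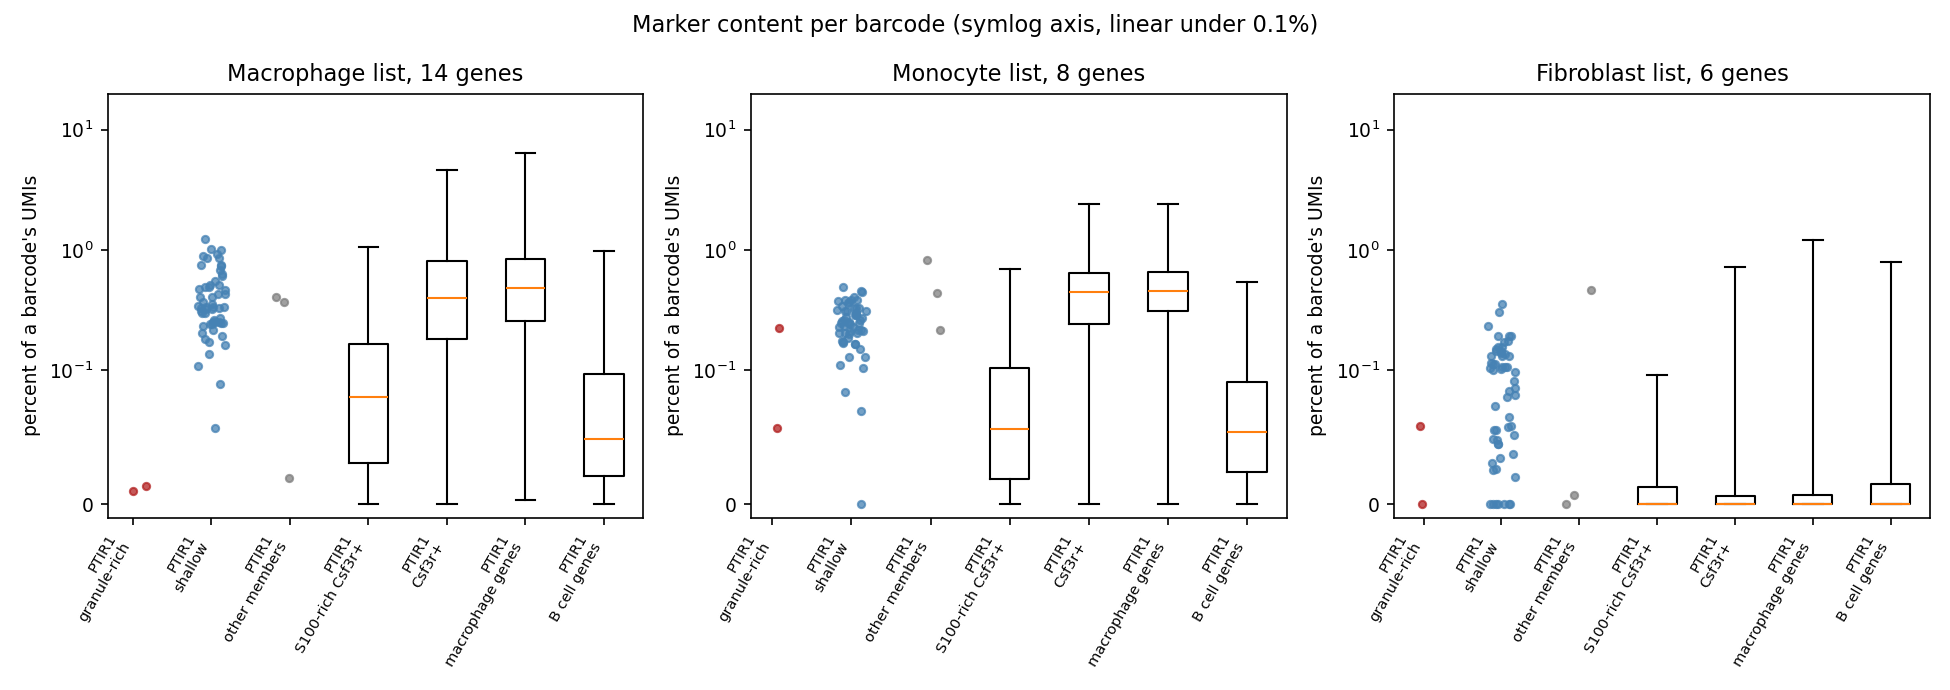
Percent of each PTIR1 barcode's UMIs from the macrophage, monocyte and fibroblast lists; points are members (granule-rich, shallow and other), and boxes give the lowest value, quartiles and highest value of 4 comparison sets on an axis that is linear under 0.1% and logarithmic above. The shallow barcodes lie among the Csf3r-positive barcodes for macrophage genes and above their median for fibroblast genes, and both granule-rich barcodes lie below the shallow barcodes for macrophage genes. The sets named for macrophage genes and B cell genes were chosen in part by their number of macrophage genes.

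Csf3r-positive barcodes below the limit were the comparison that the rule named. There were 1094 in the PTIR1 and 1380 in the Mock library, with medians of 14839 and 14508 UMIs. In the PTIR1 library 832 of them had at least 5 macrophage genes, and S100a8 and S100a9 made up 0.270% of their UMIs. A narrower set, with at least 2% of UMIs in S100a8 and S100a9, had 120 PTIR1 barcodes (median 3166.5 UMIs) and 83 Mock barcodes. It was chosen after the values were seen, and S100a8 and S100a9 define it.

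Against the 1094 Csf3r-positive barcodes, the 62 PTIR1 members had higher granule and immature-stage RNA and lower macrophage, monocyte and interferon-response RNA. A gene was counted as higher or lower at a 2-fold ratio of CPM (a gene's UMIs over a set, scaled to the set's total), if it had at least 50 UMIs over both sets. Of 10673 such genes, 9.12% were higher and 14.2% lower, with a median log2 ratio of -0.10. As the members were chosen by neutrophil genes in these same barcodes, the counts that follow are not evidence for that choice. Of 6 measured other secondary granule genes 4 were higher and 0 lower (median log2 ratio 2.36), and of 11 other immature-stage genes 9 were higher and 1 lower (2.63). Of 13 mature-stage genes, counted without Csf3r because it chose the comparison barcodes, 1 was higher and 4 lower (-0.75). Of 14 macrophage genes 10 were lower and 0 higher (-1.60), and of 8 monocyte genes 5 were lower and 0 higher (-1.43). Of 6 fibroblast genes 5 were higher and 0 lower (2.53).

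The macrophage and monocyte direction depended on the comparison set. Against the 3189 PTIR1 barcodes of like depth, where 7.39% of 9103 genes were higher and 18.9% lower (median log2 ratio -0.12), the shallow barcodes had 4 macrophage genes higher and 0 lower of 13 (0.26). Of 8 monocyte genes 1 was higher and 2 lower (0.46). Of 10 interferon gamma response genes 3 were lower and 0 higher (-0.82), and of 10 type I interferon genes 4 were lower and 0 higher (-0.91).

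Against the 1094 Csf3r-positive barcodes again, the genes with the clearest ratios were ranked by whichever interval bound lay closer to 1. Ly6g stood at 182 CPM in PTIR1 members and 0.389 CPM in Csf3r-positive barcodes, a ratio of 467 (interval 223 to 1128) with 64 UMIs in members. Lcn2 stood at 4588 and 45.9 CPM, a ratio of 99.9 (92.2 to 108). Fcnb stood at 139 and 1.22 CPM, a ratio of 114 (69.3 to 193). These 3 were higher in the shallow barcodes alone too, with ratios of 223, 69.1 and 96.3, and in the granule-rich barcodes alone, with 1840, 343 and 373. S100a8 and S100a9 had ratios of 21.7 and 18.2. Chil1 (a chitinase-like protein), Wfdc21, Serpinb1a (an inhibitor of neutrophil proteases), Pglyrp1 (a peptidoglycan-binding granule protein) and Cd177 (a neutrophil surface protein) had ratios between 11.4 and 48.1.

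Some of the leading genes came from only some of the members. Retnlg had a ratio of 12.2, yet 244 of its 261 UMIs were in 1 barcode, and without the deeper barcodes the ratio of the shallow set was 1.18. Col3a1 had a ratio of 17.1 over all members, 17.3 in the shallow barcodes and 1 UMI in the granule-rich barcodes. Igha, an immunoglobulin heavy chain, had 12 UMIs in 9 shallow barcodes and 0 in the granule-rich barcodes. Dkk2 (a Wnt inhibitor) had 26 UMIs in the shallow and 0 in the granule-rich barcodes. Adamts1, a secreted protease, had a ratio of 13.4 with 23 UMIs, 5 of them in the shallow barcodes.

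The genes that were lower included macrophage and interferon-response genes. Fcgr1, a macrophage Fc receptor, stood at 65.3 CPM in PTIR1 members and 437 CPM in Csf3r-positive barcodes (6.70-fold lower). Ms4a4c stood at 48.3 and 483 CPM (10.0-fold lower), Tgfbi at 90.9 and 604 CPM (6.64-fold lower) and Psap (prosaposin) at 335 and 1599 CPM (4.77-fold lower). Irf7, Slfn5 and Ifit2, which respond to interferon, were 6.79, 7.22 and 25.8-fold lower, with 16, 11 and 1 UMIs in members (interval for Ifit2 4.63 to 1020-fold). Cstdc4, Mmp12 (macrophage elastase), Prf1 (perforin), Ppbp (a platelet chemokine) and Fcgr4 were between 10.8 and 27.6-fold lower, each with 6 UMIs or fewer in members. The intervals ran from 7.63 to 228-fold for Cstdc4, with 2 UMIs, and from 5.02 to 71.2-fold for Ppbp, with 3. Cfb, Ifi44l and Itga1 had 0 UMIs in members and 76.8, 56.9 and 44.0 CPM in Csf3r-positive barcodes, so that with 3 counts over the members as the floor they were at least 9.02, 6.68 and 5.16-fold lower. Of 10 interferon gamma response genes 9 were lower and 0 higher (median log2 ratio -1.91), and the type I interferon list had 9 of 10 lower (-1.75). Of 5 immunoproteasome genes, the subject of the series title, 0 passed 2-fold over all PTIR1 members (-0.61).

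Split by set, the granule-rich and shallow PTIR1 barcodes differed for several lists. Against the same Csf3r-positive barcodes, 16.1% of genes were higher and 10.6% lower in the granule-rich barcodes, and 9.59% higher and 16.5% lower in the shallow barcodes. A gene at 0 UMIs in members was counted with 3 UMIs as its upper bound. The median log2 ratio of the 6 other secondary granule genes was 4.22 in the granule-rich and 1.21 in the shallow barcodes. That of the other immature-stage genes was 4.05 and 1.69, and that of the 13 mature-stage genes was -1.71 and -1.38. Of the 5 immunoproteasome genes 4 were lower in the granule-rich barcodes (-1.43) and 0 in the shallow barcodes (-0.32). Cell cycle genes were higher in 15 of 19 for the granule-rich barcodes (median log2 ratio 2.04), against 3 higher and 4 lower of 19 for the shallow barcodes (0.17). In the granule-rich barcodes Mki67 stood at 559 CPM and Pclaf, a replication factor, at 472 CPM, against 10.2 and 15.3 CPM in the shallow barcodes. Fibroblast genes were higher in 1 of 6 for the granule-rich barcodes and in 5 of 6 for the shallow barcodes. Of 14 macrophage genes 11 were lower in the granule-rich barcodes and 9 in the shallow barcodes. In the shallow barcodes C1qa, C1qb and C1qc had ratios of 1.90, 1.99 and 1.44, while Fcgr1 and Trem2 had ratios of 0.151 and 0.190.

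**Figure D4:**
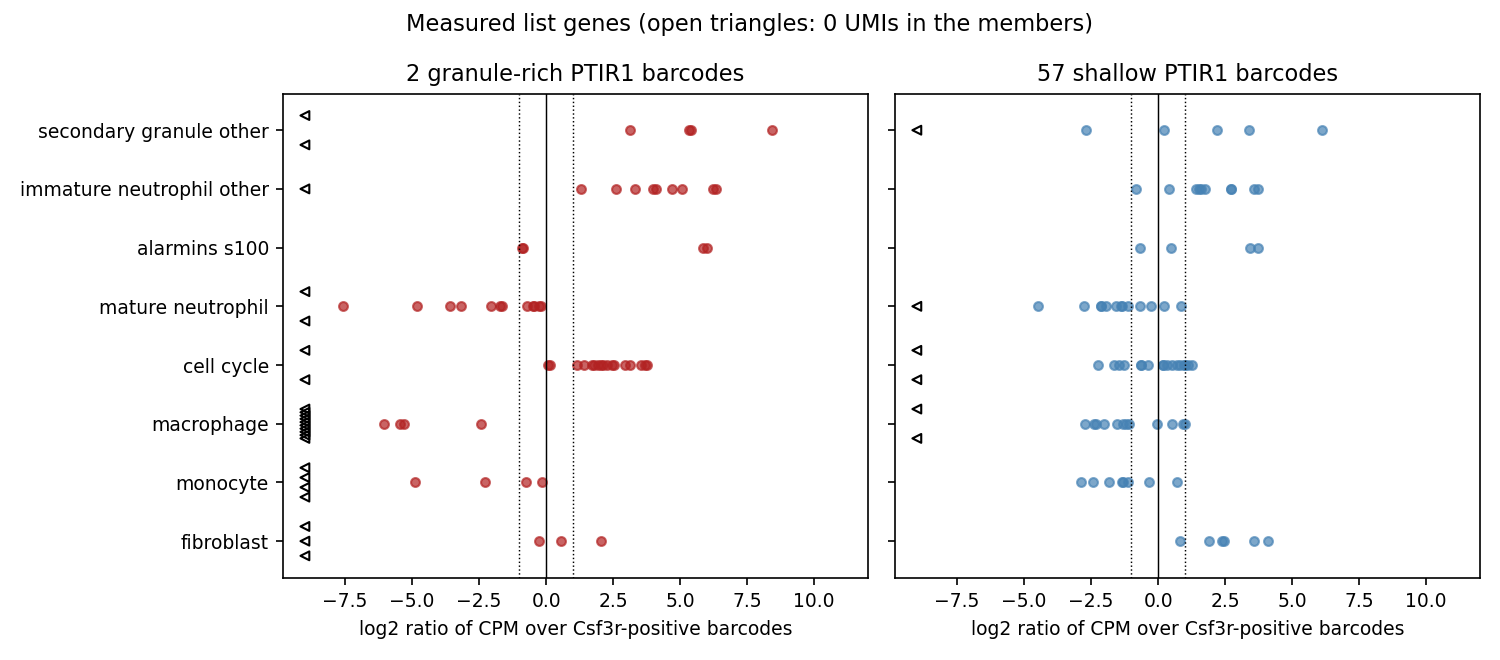
Log2 ratio of CPM over the 1094 Csf3r-positive PTIR1 barcodes for each measured gene of 8 lists, in 2 granule-rich barcodes (left) and 57 shallow barcodes (right); each point is a gene, dotted lines mark 2-fold, and open triangles at the left edge are genes with 0 UMIs in the members. Cell cycle genes lie to the right in the granule-rich barcodes (15 of 19 past 2-fold), and fibroblast genes in the shallow barcodes (5 of 6).

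Mature neutrophil genes were low in both sets against the narrower S100-rich comparison. Without Csf3r, all 13 mature-stage genes were lower in the shallow barcodes (median log2 ratio -4.03) and in the granule-rich barcodes (-4.93). Of all genes, 17.5% were higher and 29.9% lower in the shallow barcodes, and 7.23% were higher and 38.2% lower in the granule-rich barcodes. Il1b, the interleukin 1β precursor, stood at 708 CPM in the shallow barcodes and 0 UMIs in the granule-rich barcodes, against 10317 CPM in S100-rich Csf3r-positive barcodes. Cxcl2, a neutrophil chemokine, stood at 2867 and 52.4 CPM in the shallow and granule-rich barcodes, against 30879 CPM. G0s2 stood at 794.5 and 104.8 CPM, against 10160 CPM. Chil3 went the other way, at 504 and 3912 CPM against 47.5 CPM. The oxidase genes Cybb and Ncf1, whose products form the NADPH oxidase, stood at 1065 and 541 CPM in the granule-rich barcodes, against 242.5 and 151 CPM. In the shallow barcodes they stood at 275 and 91.7 CPM. Of 10 macrophage genes 4 were higher and 3 lower in the shallow barcodes (0.020), and of 8 monocyte genes 2 were higher and 1 lower (0.27). In the granule-rich barcodes all 7 measured macrophage genes were lower (-2.01).

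In the Mock library the comparison had 1 granule-rich barcode against 1380 Csf3r-positive barcodes, where 12% of genes were higher and 4.83% lower. Of 6 measured other secondary granule genes 5 were higher, and of 9 other immature-stage genes 8 were higher. Mature-stage genes without Csf3r were higher in 7 and lower in 4 of 13, immunoproteasome genes were lower in 4 of 5 (median log2 ratio -1.66), and cell cycle genes were higher in 1 of 19 with 16 at 0 UMIs. Of 9 gelatinase and secretory granule genes, 2 were higher and 4 lower in the PTIR1 granule-rich barcodes (median log2 ratio -0.77). In the Mock granule-rich barcode 5 of them were higher and 1 lower (1.03). Each set was compared with its own library's Csf3r-positive barcodes. Against S100-rich Csf3r-positive Mock barcodes, 12 of 13 mature-stage genes were lower, where 6.74% of all genes were higher and 39% lower.

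Detection was then compared at an equal depth of 1000 UMIs. The rule genes are left out, since the choice of members fixed their detection. Lcn2 was detected in 96.4% of the 56 thinned shallow barcodes, 43.0% of S100-rich Csf3r-positive barcodes, 6.48% of all Csf3r-positive barcodes and 0.360% of 555 barcodes with B cell genes. Csf3r was detected in 0 of the 56, where a floor of 3 counts allows a share of up to 5.36% (exact binomial upper limit 6.38%), against 4.69% of barcodes of like depth, which were not chosen by Csf3r. The Csf3r-positive sets, which were, stood at 59.6% and 19.1%. C1qa was detected in 46.4% of shallow barcodes, 7.89% of Csf3r-positive barcodes, 7.34% of barcodes of like depth and 1.08% of those with B cell genes. The thinning was a random draw, and its own spread is not in the intervals. In a separate draw over 61 PTIR1 members, these 56 among them, C1qa was detected in 19 (31.1%). Tm4sf1 was detected in 28 of the 56 thinned shallow barcodes in 4.13% of Csf3r-positive barcodes and in 11.2% of barcodes of like depth. Without thinning, Lcn2, C1qa and Csf3r were detected in 100%, 68.4% and 1.75% of shallow barcodes, and the median depths were 3460 UMIs in shallow and 14839 in Csf3r-positive barcodes. The part of C1qa and Tm4sf1 RNA in the detection of granule genes was not tested.

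**Figure D5:**
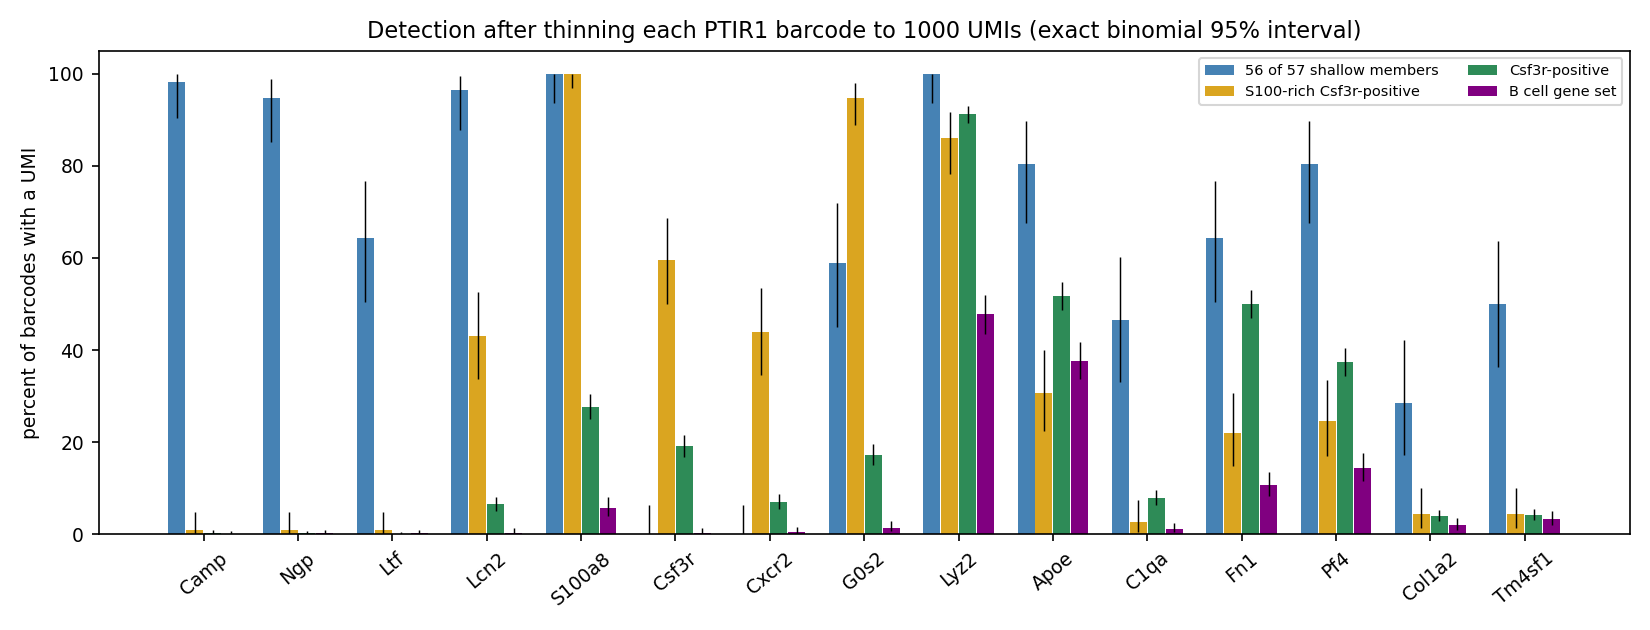
Percent of PTIR1 barcodes with at least 1 UMI of a gene after thinning to 1000 UMIs, in shallow members, S100-rich Csf3r-positive, all Csf3r-positive and B cell gene barcodes; bars show the share and lines its exact binomial 95% interval. The granule, macrophage, fibroblast and tumour genes shown are all frequent in shallow members, and Csf3r and Cxcr2 are at 0 there. Csf1r and Ccr2, detected less often in shallow members than in Csf3r-positive barcodes, are not shown. The rule fixed the granule genes it used, Csf3r chose both Csf3r-positive sets, and the B cell gene set was chosen with few macrophage genes. The thinning was a random draw, whose own spread the intervals do not cover.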

How the data were processed

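The authors deposited raw UMI counts. Per the file headers, Cell Ranger 5.0.0 wrote them. Seurat 3.2.3 and the build mm10 come from the submitters' processing notes and kit version 3.1 from the labels' protocols, while no source used here names the annotation. Free RNA was not subtracted and doublets were kept. UMIs of a set were summed and divided by its total (CPM), with exact conditional binomial 95% intervals of ratios and exact binomial intervals of shares. Genes with at least 50 UMIs over both sets were measured, and a set at 0 was given 3 counts. Named genes were list members and the 15 in each direction with the interval end nearest to 1, detected in at least 10% of the higher set, without Camp, Ngp, Ltf, mitochondrial and ribosomal protein genes. PTIR1 and Mock members were not compared gene by gene, as that was set for at least 20 members in each. The members and lists were chosen with earlier results of these data known. Marker sets were 31 lists, and some of their genes are not reported here. The interval code was tested on simulated data. Scripts ran in Python 3.11.15 with scipy 1.17.1, numpy 2.4.6, scanpy 1.11.5 (Scrublet) and pandas 2.3.3.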

Additional observations from a re-analysis of the deposited data

How the results depend on the processing

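No paired analysis was possible because each genotype had 1 library. With 1 library each, genotype and library cannot be told apart, and 2 granule-rich PTIR1 barcodes cannot give a spread. The alternatives that kept only shallow or only granule-rich barcodes, or changed the comparison to S100-rich barcodes or barcodes of like depth, were chosen after seeing the data. A value was taken as moved where it left the main value's 95% counting interval (for a list, that of its middle genes). The log2 ratio of the share of members was 4.67 and 1.30 with only the barcodes of at least 500 summed UMIs (2 PTIR1 and 1 Mock). The other alternatives left it within its interval.

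Macrophage and monocyte UMIs were 0.664% of PTIR1 member UMIs, and 0.579% (summed UMI limit of 20), 0.582% (highest Scrublet scores removed), 0.58% (at least 20 summed UMIs and 2000 UMIs in all), 0.71% (only members under 10000 UMIs), 0.175% (only members with at least 500 summed UMIs). The median log2 ratio of other secondary granule genes was 2.36, and moved to 1.92 (at least 2 Csf3r UMIs), 1.31 (each cell weighing the same), 1.28 (thinned to 1000 UMIs), 1.21 (only members under 10000 UMIs), 4.22 (only members with at least 500 summed UMIs), 1.22 (against S100-rich Csf3r-positive cells), 2.82 (against non-members of like depth). The median log2 ratio of other immature-stage genes was 2.63, and moved to 2.85 (summed UMI limit of 20), 2.90 (highest Scrublet scores removed), 3.13 (macrophage and monocyte UMIs under 1%), 2.38 (each cell weighing the same), 1.97 (thinned to 1000 UMIs), 2.93 (at least 10 UMIs for a measured gene), 1.69 (only members under 10000 UMIs), 4.05 (only members with at least 500 summed UMIs), 1.86 (against S100-rich Csf3r-positive cells). The median log2 ratio of mature-stage genes (Csf3r among them) was -0.75, and moved to -0.98 (summed UMI limit of 20), -1.02 (highest Scrublet scores removed), -0.996 (at least 2 Csf3r UMIs), -2.18 (each cell weighing the same), -1.65 (thinned to 1000 UMIs), -1.48 (only members under 10000 UMIs), -1.69 (only members with at least 500 summed UMIs), -3.42 (against S100-rich Csf3r-positive cells). These medians kept their sign under every alternative run. Among ranked genes, and lists with a main median of at least 2-fold, signs turned round only with alternatives added later. Other lists were not counted for this, and the oxidase list went from -0.18 over all members to 1.05 with only granule-rich barcodes. With only granule-rich barcodes Retnlg had a log2 ratio of -0.21. Against S100-rich Csf3r-positive barcodes S100a9 was at -0.53, Retnlg at -1.003, the S100 list at -0.23 and the monocyte list at 0.42. Against barcodes of like depth the macrophage list was at 0.077 and the monocyte list at 0.42. Of 392 values of the 30 ranked genes under 14 alternatives, 389 did not turn round. Removing the highest Scrublet scores took out 458 PTIR1 and 696 Mock barcodes, among them 1 member and 0 of the shallow or granule-rich barcodes. The cause of these shifts was not tested beyond the change each alternative makes to the sets.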
